A study of Mus musculus with 24 samples.

Results

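The genes described are 31 members of the sterol regulatory element-binding protein (SREBP) pathway, chosen by name from 20673 genes counted in each of 24 libraries. They comprise 16 genes of cholesterol synthesis, 5 genes that control SREBP, 1 sterol transport gene (Stard4) and 9 genes of fatty acid synthesis and modification. The series measured messenger RNA of C57BL/6J mice that lack miR-155 (KO) and of wild-type (WT) mice in 4 types of activated primary immune cell, with 3 libraries in each of 8 groups. Splenic B cells from KO and from WT mice had been given 25 ug/ml lipopolysaccharide (LPS) with 6.5 ng/ml interleukin 4. Splenic CD11c+ dendritic cells from KO and from WT mice had been given 100 ng/ml LPS with 20 ng/ml GM-CSF, and all dendritic cell donors carried a B16 melanoma that made Flt3 ligand. Thioglycollate-elicited peritoneal macrophages of both genotypes had been given 100 ng/ml LPS, and CD4+CD25-CD44- T cells of both genotypes had been stimulated with beads bearing antibodies to CD3 and CD28. The labels give neither the age or number of the animals nor the length of stimulation, and they call the libraries of a condition sequencing replicates. The p-values below therefore measure the spread between libraries, which may be technical.

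SREBP transcription factors are made as precursors in the membrane of the endoplasmic reticulum, where the sterol sensor SCAP escorts them and the INSIG proteins hold them back while sterol is plentiful. When sterol runs short, the factors are cut free and raise transcription of the enzymes that turn acetyl-CoA into cholesterol and into unsaturated fatty acids. Activated lymphocytes need new membrane to divide, and in LPS-treated macrophages the pathway is known to be coupled to inflammatory and interferon signalling.

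The microRNA miR-155 is induced when immune cells are activated, pairs through its seed with messenger RNAs and lowers their level. Its mature sequence is shown, from RefSeq on GRCm38.p6 at chr16:84714143-84714165 on the plus strand, because complements of the capitalised seed (bases 2 to 8) were searched in the members.

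mmu-miR-155-5p: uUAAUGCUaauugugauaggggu

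A match of at least 7 bases (AGCATTA, or GCATTAA ending in the A opposite base 1) lay in the longest annotated 3' UTR of 3 of 31 members. That is 9.7% of the members, against 13.4% of 19478 annotated genes. The matches in Hsd17b7 and Fads2 were AGCATTA, and they are printed with their neighbouring bases from GENCODE M21 on GRCm38, capitals marking the match. Hsd17b7, a sterol reductase, held it at chr1:169952473-169952497 on the minus strand, and Fads2, a fatty acid desaturase, at chr19:10063837-10063861 on the minus strand.

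Hsd17b7: tgtgtttgggccacaAGCATTAttt

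Fads2: tctacactccctgtcAGCATTAtgg

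Hmgcs1, which encodes HMG-CoA synthase, held a match of GCATTA alone. It is also the member listed at 0 in all 24 libraries, as 4226 genes of the files were, so it has no level or comparison here. The other 30 members were counted in every library, with a lowest count of 3, and passed the filter on low counts in every cell type.

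Gene counts summed to between 7428821 and 14219823 per library. The summed markers of each labelled cell type were highest in that type: B cell markers summed to 3360 to 3700 CPM (reads scaled to a common library total by TMM) in B cells, CD4 T cell markers to 1610 to 1770 in T cells, dendritic cell markers to 11200 to 15400 in dendritic cells, and macrophage markers to 27900 to 38900 in macrophages. Among single markers, 2 of the dendritic cell list were higher in another type. Itgax had means of 29.0 CPM in KO and 31.3 CPM in WT dendritic cells but 394 CPM in KO and 262 CPM in WT macrophages, and H2-DMb2 had 11.9 CPM in KO and 15.9 CPM in WT dendritic cells but 274 CPM in KO and 309 CPM in WT B cells. WT macrophage replicate 3 stood apart from the other WT macrophage libraries, with 27900 CPM of macrophage markers against 37000 and 38900, and 860 CPM of proliferation markers against 546 and 497. Results that rest on it are given with and without it. The deleted microRNA itself was not analysed, so the genotypes rest on the sample titles.

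In WT cells the pathway was more abundant in the lymphocytes than in the myeloid cells. Of 30 members, 20 were higher and 3 lower in B cells than in dendritic cells, by edgeR at an adjusted p under 0.05, while 37.4% of all genes tested were higher and 41.2% lower. Against macrophages, B cells had 20 members higher and 4 lower, with 38.8% and 41.6% of all genes. T cells had 23 members higher and 4 lower than dendritic cells (38.8% and 40.6% of all genes), and 22 higher and 6 lower than macrophages (39.9% and 41.8%). Without WT macrophage replicate 2, 3 members were lower in T cells than in macrophages, and the share over all genes was not computed for that fit. The median log2 difference of the members ran from 0.65 to 0.87 over these 4 pairs, with medians of -0.084 to -0.030 over all genes. Within the lymphocytes, 4 members were higher and 10 lower in B cells than in T cells (25.6% and 24.7% of all genes), and dendritic cells had 9 higher and 10 lower than macrophages (38.1% and 39.4%). Cell type, tissue and stimulus cannot be told apart in these differences.

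For 19 of the 30 members both lymphocyte means lay above both myeloid means, and Tm7sf2, a sterol reductase, was the single member with the opposite order. T cells held the highest mean of 6 cholesterol synthesis and 6 fatty acid synthesis members, and B cells that of 5 and 2. Per kb of coding length, the most abundant members in WT B cells were the desaturase Scd1 (262 CPM per kb), farnesyl diphosphate synthase Fdps (233) and the desaturase Scd2 (209). In WT T cells they were Scd2 (328), the lanosterol demethylase Cyp51 (251) and Fdps (184). In WT dendritic cells they were phosphomevalonate kinase Pmvk (346), the transcription factor Srebf2 (148) and Fdps (120), and in WT macrophages ATP citrate lyase Acly (147), Fdps (103) and Srebf2 (87.8). Fdps was thus among the 3 most abundant members per kb in each cell type.

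**Figure D1:**
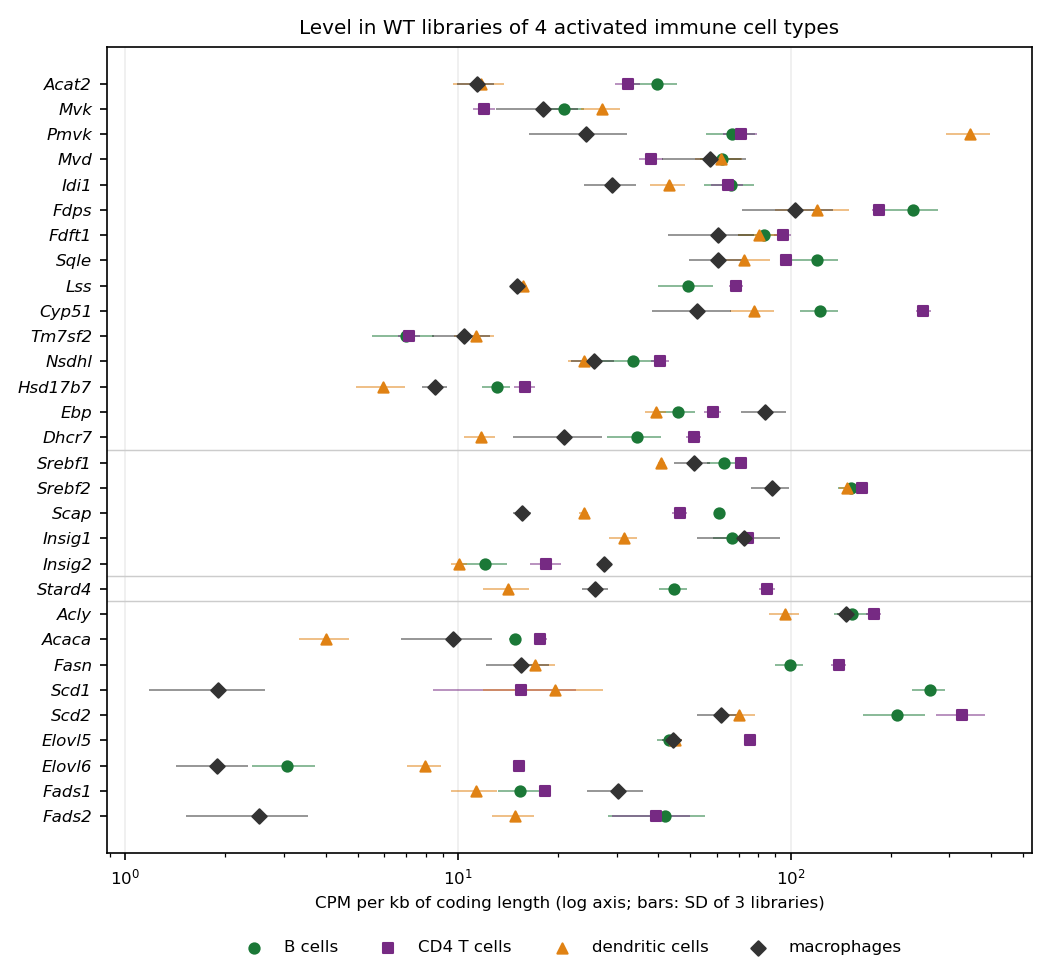
Mean level of 30 members in WT libraries of the 4 cell types, in CPM per kb of coding length on a log axis, with bars for the SD of 3 libraries; grey lines separate cholesterol synthesis, SREBP control, sterol transport and fatty acid synthesis. The macrophage diamond lies far left of the other types for Scd1 (1.90 CPM per kb) and Fads2 (2.53), and the dendritic cell triangle far right of them for Pmvk (346).

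The widest spread between cell types was that of Scd1, which desaturates stearoyl-CoA. Its WT B cell libraries had 289, 244 and 305 CPM, T cells 10.4, 14.3 and 25.0, dendritic cells 15.5, 30.3 and 16.9, and macrophages 1.34, 1.87 and 2.86. B cells and macrophages each lay apart from all other libraries, and T cells and dendritic cells overlapped. The log2 difference was 4.07 (SE 0.32, adjusted p = 3.11e-07) for B cells minus T cells and 3.36 (SE 0.41, adjusted p = 7.78e-06) for dendritic cells minus macrophages, whereas T cells minus dendritic cells gave -0.35 (SE 0.31, adjusted p = 0.317). Scd1 and Scd2 are neighbouring genes of similar sequence, and how reads shared between them were counted is not given in the sources used here.

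Fads2, the first desaturase of polyunsaturated fatty acid synthesis, was nearly silent in macrophages. B cells had 55.1, 39.8 and 76.5 CPM, T cells 41.7, 50.5 and 69.3, dendritic cells 23.3, 20.1 and 17.4, and macrophages 2.79, 5.06 and 2.55. B cells and T cells overlapped (log2 difference 0.072, SE 0.25, adjusted p = 0.843), and each step from T cells to dendritic cells to macrophages was called, at 1.40 (SE 0.26, adjusted p = 0.00031) and 2.53 (SE 0.33, adjusted p = 1.21e-05).

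Pmvk, which adds the next phosphate to phosphomevalonate, stood out in dendritic cells. B cells had 42.9, 35.5 and 49.9 CPM, T cells 42.2, 42.3 and 51.7, dendritic cells 256, 219 and 189.9, and macrophages 15.9, 20.4 and 10.3. The dendritic cell libraries lay above all others, with a log2 difference of -2.30 (SE 0.20, adjusted p = 2.66e-07) for T cells minus dendritic cells and 3.83 (SE 0.22, adjusted p = 6.77e-09) for dendritic cells minus macrophages. B cells and T cells did not differ beyond their spread (-0.10, SE 0.20, adjusted p = 0.711).

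For fatty acid synthase, Fasn, B cells had 806, 667 and 774 CPM, T cells 1058, 1101 and 993, dendritic cells 108, 141 and 137, and macrophages 96.2, 109 and 145. Both lymphocyte types lay above both myeloid types, and dendritic cells and macrophages overlapped (log2 difference 0.14, SE 0.16, adjusted p = 0.418). The elongase Elovl6 was ordered otherwise: B cells had 2.27, 2.03 and 3.05 CPM, T cells 12.5, 12.6 and 11.7, dendritic cells 5.91, 7.22 and 5.97, and macrophages 1.86, 1.12 and 1.53. All neighbours in the order T cells, dendritic cells, B cells and macrophages differed, with B cells minus macrophages the closest pair at 0.68 (SE 0.24, adjusted p = 0.0195). Stard4, a carrier that moves sterol between membranes, ran between 30.9 and 37.3 CPM in B cells, 61.9 and 69.0 in T cells, 9.50 and 12.9 in dendritic cells and 18.5 and 22.01 in macrophages, with no overlap between types.

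Loss of miR-155 went with lower levels of part of the pathway in dendritic cells. Of 30 members, 12 fell, none rose and 18 were not called in KO dendritic cells relative to WT, by edgeR's quasi-likelihood test with Benjamini-Hochberg adjustment. Over all genes tested, 9.42% were called lower and 12.2% higher, so that 40% of the members fell against a background of 9.42%. The median log2 fold change was -0.34 over the members and -0.011 over all genes, and 25 of 30 members had a negative value. In 16 members all KO libraries lay below all WT libraries, an order seen in 20.4% of all genes, and in 1 member (Srebf2) they lay above, as in 20.8%. The members that fell were 8 of 15 tested cholesterol synthesis genes, 2 of 5 SREBP control genes and 2 of 9 fatty acid synthesis genes. In these bulk libraries fewer cells of a type and less RNA per cell cannot be told apart.

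**Figure D2:**
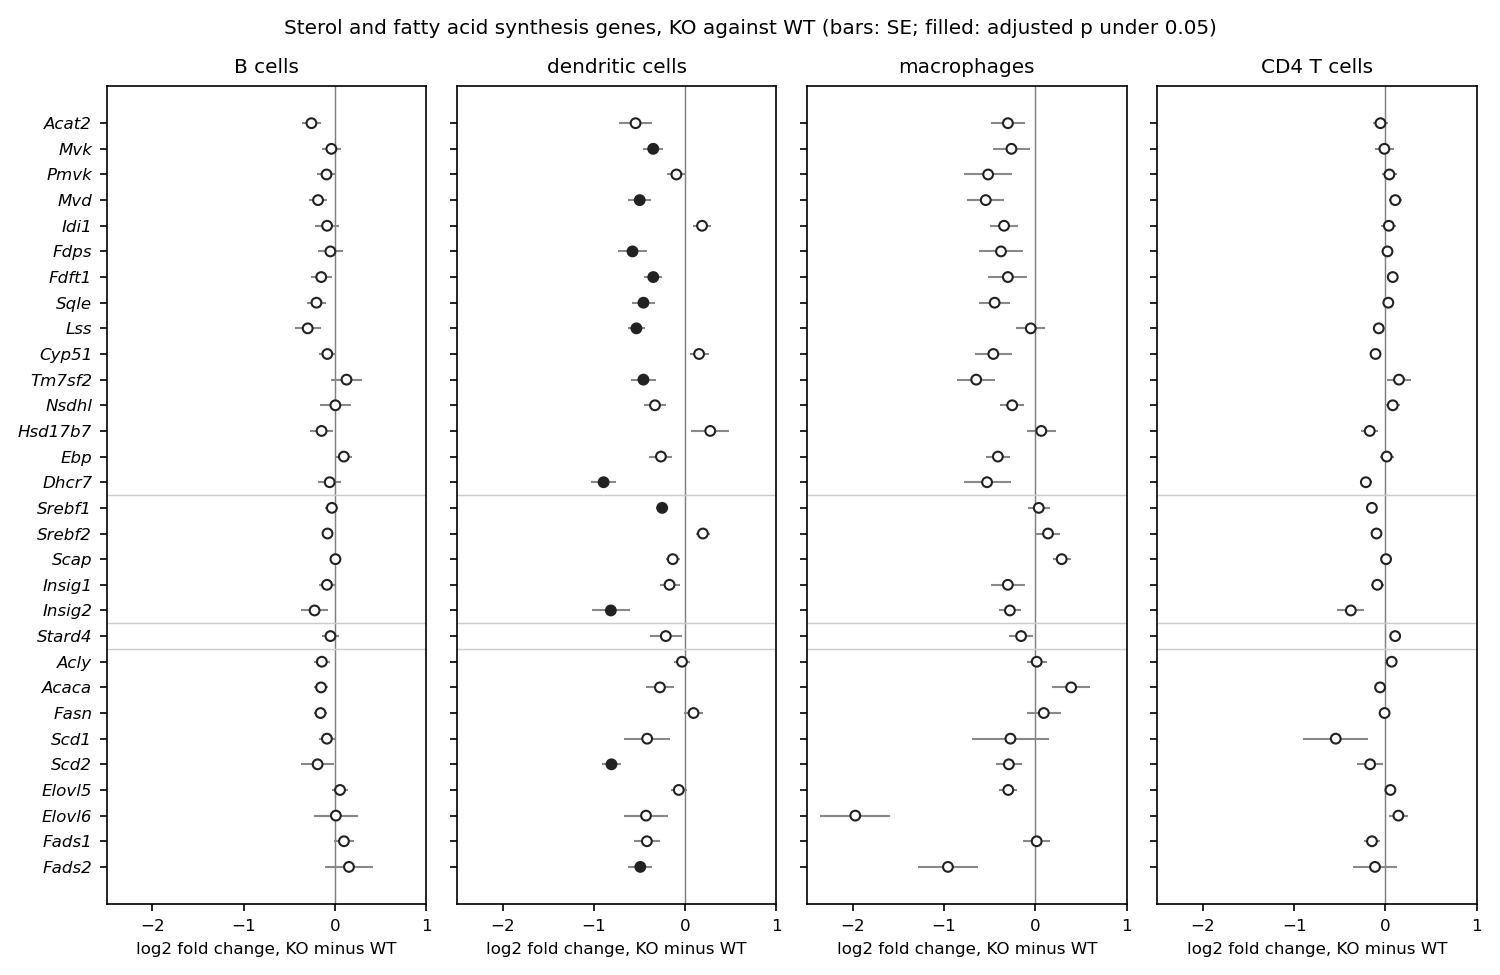
Log2 fold change (KO minus WT) of 30 members in each cell type, with bars for the SE and filled points for an adjusted p under 0.05; grey lines separate the roles. Filled points occur only in the dendritic cell panel, where 12 lie left of 0, and the leftmost point of all is Elovl6 in macrophages (-1.97), which is open.

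The lowest relative level was that of Dhcr7, the reductase that completes cholesterol from its last precursor. It had 9.64, 8.61 and 8.57 CPM in KO dendritic cells and 16.1, 15.3 and 18.6 CPM in WT dendritic cells. The highest KO library lay well below the lowest WT library, and the log2 fold change was -0.89 (SE 0.14, adjusted p = 0.0012). Lss, which closes the ring system of the sterols, had 24.02, 24.3 and 23.6 CPM in KO and 35.5, 35.1 and 33.8 CPM in WT. The libraries within each genotype were almost alike, and Lss fell by 0.53 on the log2 scale (SE 0.091, adjusted p = 0.00228).

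Earlier steps of the pathway fell too. Fdps, which makes the farnesyl unit used for sterols and for protein prenylation, had 101, 98.4 and 116 CPM in KO and 201, 125 and 144 CPM in WT, a log2 fold change of -0.58 (SE 0.16, adjusted p = 0.034). The genotypes did not overlap, but WT replicate 1 stood well above the other WT libraries. Processed pseudogenes of Fdps exist, and how reads shared with them were counted is not given. Mvd, which forms the first isoprenoid unit from mevalonate, had 50.6, 54.6 and 63.9 CPM in KO and 91.2, 66.0 and 81.9 CPM in WT (log2 fold change -0.50, SE 0.13, adjusted p = 0.0196). Its highest KO library lay just below its lowest WT library. Squalene epoxidase, Sqle, had 83.7, 96.1 and 91.1 CPM in KO and 152, 113 and 107 CPM in WT (-0.46, SE 0.13, adjusted p = 0.0262). Tm7sf2 had 11.2, 10.4 and 10.95 CPM in KO and 17.03, 13.0 and 14.8 CPM in WT (-0.46, SE 0.14, adjusted p = 0.0402). Neither gene's genotypes overlapped. Mevalonate kinase, Mvk, and squalene synthase, Fdft1, each fell by 0.35 on the log2 scale, with adjusted p of 0.0437 and 0.0308.

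The other 7 tested cholesterol synthesis genes were not called in dendritic cells. The thiolase Acat2 had 7.39, 11.2 and 9.97 CPM in KO and 16.2, 11.4 and 14.0 CPM in WT, without overlap (-0.54, SE 0.19, adjusted p = 0.0598), and its near-copy Acat3 makes its counts uncertain. The sterol dehydrogenase Nsdhl (-0.33, adjusted p = 0.0655), the sterol isomerase Ebp (-0.27, adjusted p = 0.154) and Pmvk (-0.096, adjusted p = 0.537) also had negative values. Idi1, the isomerase of the isoprenoid units, had 42.2, 46.6 and 44.9 CPM in KO and 44.2, 34.9 and 38.8 CPM in WT, which overlap (0.19, SE 0.10, adjusted p = 0.225). Cyp51 (0.15, SE 0.10, adjusted p = 0.314) and Hsd17b7 (0.27, SE 0.21, adjusted p = 0.37) likewise had positive values and overlapping libraries.

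Among the control genes, Insig2, which retains SREBP precursors in the endoplasmic reticulum, had 3.56, 4.92 and 3.09 CPM in KO dendritic cells and 7.09, 6.37 and 6.96 CPM in WT. These values rest on 27, 36 and 22 counts in KO and 60, 53 and 56 counts in WT. The genotypes were separate, and Insig2 fell by 0.81 on the log2 scale (SE 0.21, adjusted p = 0.0191). Srebf1, the SREBP gene most tied to fatty acid synthesis, had 118, 117 and 117 CPM in KO and 138, 144 and 138 CPM in WT, a small drop of -0.25 (SE 0.067, adjusted p = 0.0226) without overlap. Srebf2, the SREBP gene most tied to cholesterol synthesis, lay the other way without passing the test, at 588, 604 and 572 CPM in KO and 484, 533 and 528 CPM in WT (0.19, SE 0.073, adjusted p = 0.0816). Scap (-0.14, SE 0.077, adjusted p = 0.229) and Insig1 (-0.17, SE 0.11, adjusted p = 0.288) overlapped between genotypes, as did Stard4 (-0.21, SE 0.17, adjusted p = 0.409).

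Of the fatty acid genes, Scd2 had the smallest p of all members. It had 39.1, 47.3 and 42.4 CPM in KO dendritic cells and 66.1, 83.4 and 76.3 CPM in WT. The genotypes lay far apart, and Scd2 fell by 0.81 on the log2 scale (SE 0.11, adjusted p = 0.000545). The related desaturase gene Scd1 had 14.0, 18.3 and 14.6 CPM in KO and 15.5, 30.3 and 16.9 CPM in WT, which overlap (-0.42, SE 0.25, adjusted p = 0.259). Fads2 had 15.3, 14.1 and 13.8 CPM in KO and 23.3, 20.1 and 17.4 CPM in WT, separate by genotype (-0.49, SE 0.13, adjusted p = 0.0239). Its neighbour in the same pathway, Fads1, missed the threshold without overlap (-0.42, SE 0.14, adjusted p = 0.0622). The enzymes that make palmitate were closer to 0: Acly at -0.035 (adjusted p = 0.815), acetyl-CoA carboxylase Acaca at -0.28 (adjusted p = 0.231) and Fasn at 0.092 (adjusted p = 0.56). The elongases Elovl5 (-0.070, adjusted p = 0.602) and Elovl6 (-0.43, adjusted p = 0.224) were not called.

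**Figure D3:**
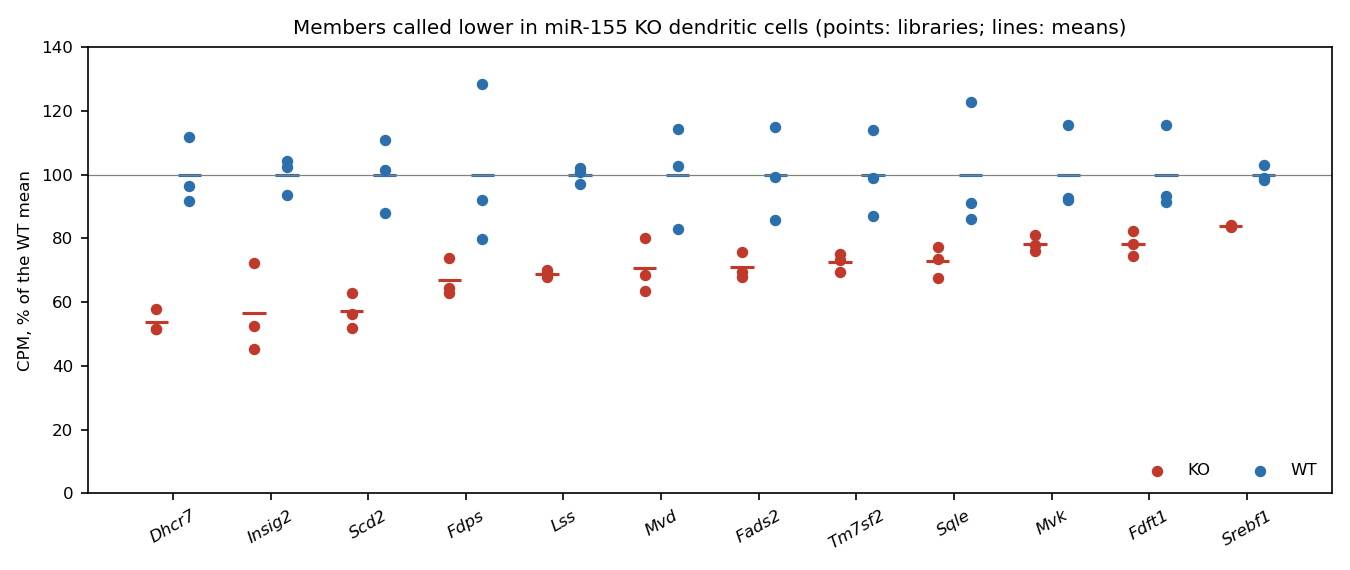
Level of the 12 members that fell in KO dendritic cells, for each KO and WT library, as a percentage of the WT mean of that gene (horizontal lines: means). By the fitted log2 fold changes, KO levels run from 53.8% of WT (Dhcr7) to 84.0% (Srebf1). No KO point reaches the lowest WT point of its gene.

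The count of members that fell depended on single libraries. Without KO replicate 1, 3 members fell (Lss, Dhcr7 and Scd2; 5.32% of all genes were lower), without KO replicate 2, 4 members (4.13%), and without KO replicate 3, 4 members (4.46%). Without WT replicate 3, 7 members fell (5.64% of all genes), and without WT replicate 2, 13 members (10.5%). Without WT replicate 1, 13 members fell (11.8% of all genes) and 2 rose, Idi1 and Cyp51 (15.1%). Lss, Dhcr7 and Scd2 were called in every alternative run, and all 12 members kept a negative value in all of them. DESeq2 called 8 of the 12 and no other member, with 4.97% of all genes lower. That share is over 14398 genes with any count, whereas the 9.42% of the main fit is over 10536 that passed the filter. The 2 shares are therefore not on the same base.

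Macrophage markers were lower in the KO dendritic cells, at 106, 81.9 and 88.8 CPM over 7 genes, against 133, 156 and 344 CPM in WT, with 3 of 7 called lower and none at 0. The same list summed to 27900 to 38900 CPM in WT macrophages. Neutrophil markers summed to 1.64 to 2.11 CPM in KO and 3.13 to 12.9 CPM in WT, with Ly6g and Retnlg at 0. Most of that sum was Csf3r, with means of 1.51 CPM in KO and 5.96 CPM in WT, which was not called (adjusted p = 0.054). Csf3r is not particular to neutrophils here, with means of 622 CPM in KO and 665 CPM in WT macrophages. Dendritic cell markers summed to 14600 to 15400 CPM in KO and 11200 to 12100 CPM in WT, and of 7 genes only Fscn1 was called, as higher. B cell markers summed to 11.9 to 21.9 CPM in KO and 5.91 to 10.9 CPM in WT, with 1 of 3 tested called, as higher. Plasma cell markers overlapped (226 to 263 CPM in KO, 239 to 266 CPM in WT), with 3 of 5 called, as higher. Natural killer and CD8 T cell markers also overlapped, with Cd8a of 2 tested called higher. So did plasmacytoid dendritic cell markers, with Tcf4 of 4 called higher. Over all genes, 12.2% were called higher. Proliferation markers overlapped between genotypes (288 to 294 CPM in KO, 287 to 320 CPM in WT). Of the 8 genes in that list only Mcm2 was called, as higher. Without WT replicate 3, which held the 344 CPM, 7 members fell. Without any single KO library 3 or 4 fell, and without WT replicate 1 or 2 the count was 13. Each of these runs has 1 library fewer than the main fit. The part of these cells in the falls was not tested.

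Promoters of the members were searched because several members moved together. RefSeq (GRCm38.p6) gave a window from 250 bases before to 50 bases after the start for 24 of the 31 members. A strict sterol regulatory element (TCACNCCAC on either strand, N being any base) was found in 1 of the 24, Hmgcs1, 137 bases before its start, and in 1.4% of all genes with a window. That match is shown in capitals with its flanks at chr13:119690204-119690232 on the plus strand. The CCAAT box, which binds NF-Y, a usual partner of SREBP, was found on either strand in 19 of 24 members (79.2%) and in 41.1% of all genes with a window. At least 1 window held it in 7 of 8 members that fell in dendritic cells and in 11 of 15 members that were not called there. Counted by window, since some genes have several annotated starts, it was in 8 of 14 windows of the members that fell and in 11 of 17 of those not called. Over all 32851 windows it was in 37.4%. A match is a description of these letters and not a site.

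Hmgcs1: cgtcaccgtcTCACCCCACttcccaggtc

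The last 150 bases before an annotated start are shown for the 4 members with a CCAAT box that fell most in dendritic cells, a choice made after their values were seen. Capitals mark CCAAT, or ATTGG where the box is on the other strand. The windows are chr7:143830064-143830213 on the plus strand for Dhcr7, chr1:121332590-121332739 on the minus strand for Insig2, chr10:76531455-76531604 on the plus strand for Lss and chr8:122443423-122443572 on the minus strand for Mvd, each written in the direction of the gene. Lss and Mvd have 1 annotated start each. Dhcr7 and Insig2 have 3 each, and the window shown is the 1 of the 3 that holds a CCAAT box.

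Dhcr7: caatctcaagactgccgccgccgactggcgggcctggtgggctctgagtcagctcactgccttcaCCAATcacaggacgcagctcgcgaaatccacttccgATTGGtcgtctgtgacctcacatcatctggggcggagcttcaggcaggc

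Insig2: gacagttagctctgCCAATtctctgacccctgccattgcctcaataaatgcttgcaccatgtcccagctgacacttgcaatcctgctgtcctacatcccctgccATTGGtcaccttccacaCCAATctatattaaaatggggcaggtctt

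Lss: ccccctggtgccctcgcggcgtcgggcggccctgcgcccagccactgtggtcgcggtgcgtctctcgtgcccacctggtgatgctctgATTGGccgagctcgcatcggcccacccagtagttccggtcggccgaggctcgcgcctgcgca

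Mvd: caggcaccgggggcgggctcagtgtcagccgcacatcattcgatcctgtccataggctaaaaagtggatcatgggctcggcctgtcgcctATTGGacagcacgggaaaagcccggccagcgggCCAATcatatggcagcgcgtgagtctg

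The boxes nearest the start of the window shown begin 49 bases before it in Dhcr7, 29 in Insig2, 62 in Lss and 27 in Mvd. Dhcr7 and Mvd each held 2 boxes in opposite orientations, and Insig2 held 3.

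In KO macrophages no member was called, and 0.336% of all genes were called lower and 0.55% higher. The median log2 fold change of the members was -0.29, against -0.020 over all genes, and 14 of 15 cholesterol synthesis genes had a negative value. DESeq2 also called 0 members. KO libraries lay wholly below WT libraries in 7 members, an order found in 13.2% of all genes. The SE of a member was larger here than in dendritic cells, with a median of 0.18 against 0.12.

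The member nearest to the threshold was Elovl6, which lengthens palmitate. It had 0.327, 0.443 and 0.326 CPM in KO macrophages and 1.86, 1.12 and 1.53 CPM in WT, from 3, 4 and 3 counts in KO and 18, 12 and 15 counts in WT. The genotypes did not overlap, and the log2 fold change was -1.97 (SE 0.39, adjusted p = 0.0713). Fads2, at 1.85, 1.88 and 1.52 CPM in KO and 2.79, 5.06 and 2.55 CPM in WT, was also separate and not called (-0.96, SE 0.33, adjusted p = 0.2). So was Tm7sf2, at 7.97, 10.6 and 7.17 CPM in KO and 12.8, 16.8 and 11.5 CPM in WT (-0.65, SE 0.21, adjusted p = 0.175).

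Control genes in macrophages had small values. Scap had 68.2, 70.7 and 76.3 CPM in KO and 63.7, 59.6 and 56.3 CPM in WT, with KO above WT in all libraries (0.29, SE 0.098, adjusted p = 0.193). Insig2 had 14.0, 17.1 and 14.1 CPM in KO and 19.1, 18.8 and 17.9 CPM in WT, with KO below WT (-0.28, SE 0.12, adjusted p = 0.29). Insig1 (-0.30, SE 0.19, adjusted p = 0.456), Srebf2 (0.14, SE 0.13, adjusted p = 0.61) and Srebf1 (0.038, SE 0.12, adjusted p = 0.893) overlapped between genotypes.

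When macrophages were fitted alone, whether members were called rested on WT replicate 3, the lowest WT library in 14 of 15 cholesterol synthesis genes. Without it, 13 of 29 members fell and 1 rose, while 11.6% of all genes were called lower and 13.8% higher. Elovl6 did not pass the filter on low counts in that fit and was not tested. Mvd fell by 0.72 on the log2 scale (SE 0.14, adjusted p = 0.013), Ebp by 0.51 (SE 0.10, adjusted p = 0.013), Cyp51 by 0.63 (SE 0.15, adjusted p = 0.021) and Dhcr7 by 0.74 (SE 0.19, adjusted p = 0.031). The member that rose was Acaca, which makes malonyl-CoA (0.68, SE 0.097, adjusted p = 0.005). With any of the other 5 macrophage libraries left out instead, no member was called, but few genes were called at all. The genes called numbered 148 without WT replicate 2, 1 without KO replicate 3 and 0 in each of the other runs. A fit of all 24 libraries, which shares the spread over cell types, called 8 members lower and 1 higher, among 7.69% and 6.64% of all genes. With the replicate number as a block, no member was called, with 0.876% of all genes lower and 1.59% higher, or 265 genes in all against 95 without the block. Stromal and mesothelial markers summed to 409, 324 and 753 CPM in KO macrophages and 230.0, 129 and 343 CPM in WT, and proliferation markers to 663, 641 and 886 CPM in KO and 546, 497 and 860.0 CPM in WT, both with overlap. Dendritic cell markers were at 352 to 435 CPM in KO and 231 to 321 CPM in WT, and none of 6 tested was called. Most of this sum was Itgax, with means of 394 CPM in KO and 262 CPM in WT. The other means were at most 4.12 CPM, lower in KO for Flt3, Ccr7, Fscn1 and Batf3 and higher for Zbtb46 and H2-DMb2. The part of stromal, proliferating and dendritic cells in these results was not tested.

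**Figure D4:**
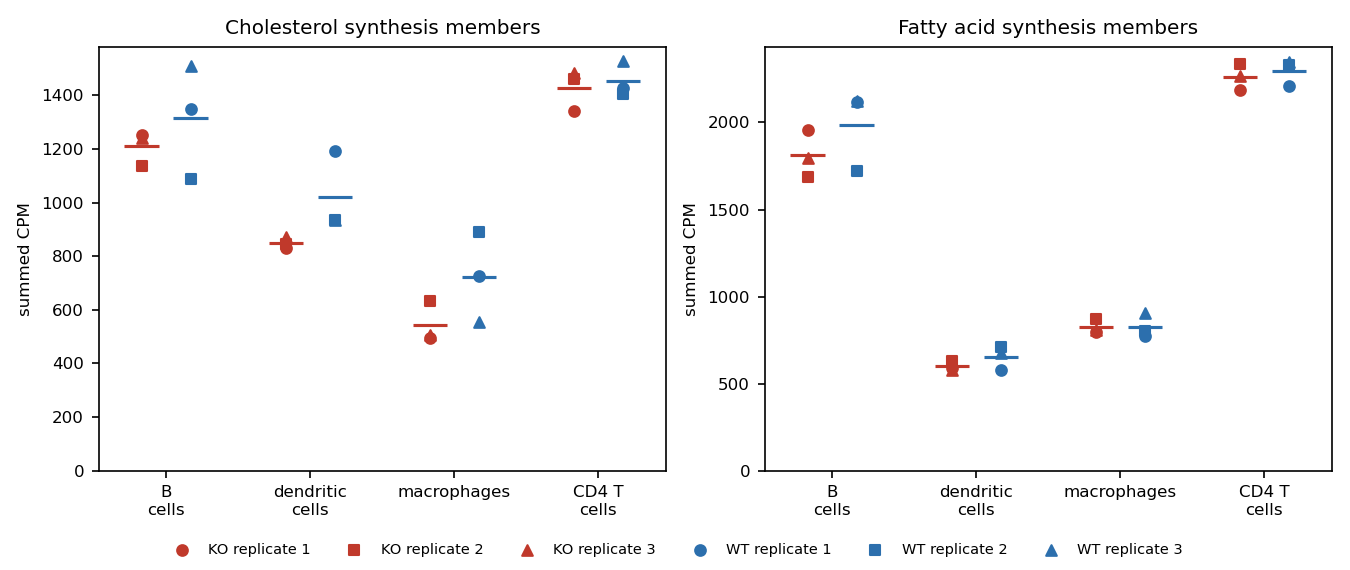
Summed CPM of 15 cholesterol synthesis and 9 fatty acid synthesis members in every library, KO left of WT within each cell type; shapes mark the replicate number and lines the means. In macrophages the KO mean of the cholesterol genes is 545 CPM and the WT mean 723 CPM with WT replicate 3 lowest, and the fatty acid sums of KO and WT lie together.

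Summed over the 15 counted cholesterol genes, KO dendritic cells had 831, 844 and 871 CPM and WT dendritic cells 1191, 934 and 937 CPM, a KO mean of 83.2% of the WT mean with no overlap. KO macrophages had 497, 631 and 506 CPM and WT macrophages 724, 890.3 and 555 CPM, or 75.3% with overlap. KO B cells averaged 1210 CPM and WT B cells 1315 CPM (92.0%), and KO T cells averaged 1427 CPM and WT T cells 1453 CPM (98.2%), both with overlapping libraries. The fatty acid genes of KO cells summed to 91.3% of WT for B cells, 91.5% for dendritic cells, 99.7% for macrophages and 98.6% for T cells, and overlapped in all 4 types. These sums are descriptions and were not tested.

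In KO B cells no member was called, with 1.11% of all genes called lower and 2.09% higher. The median log2 fold change of the members was -0.086 (-0.0023 over all genes), and 22 of 30 had a negative value, from -0.30 for Lss upwards. Lss had 95.5, 79.9 and 91.2 CPM in KO and 119.6, 86.0 and 123 CPM in WT, which overlap (SE 0.14, adjusted p = 0.359). Acat2 (-0.26, SE 0.10, adjusted p = 0.215) and Fasn (-0.16, SE 0.073, adjusted p = 0.302) were not called either, and DESeq2 called 0 members. The control genes lay near 0, at -0.035 for Srebf1, -0.082 for Srebf2, 0.0045 for Scap, -0.088 for Insig1 and -0.22 for Insig2, with adjusted p from 0.494 to 0.984. Without WT replicate 2, the lowest WT library in 14 of 15 cholesterol genes, Sqle and Lss fell, with 0.49% of all genes lower.

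In KO T cells no member was called either, with 0.798% of all genes lower and 1.35% higher. The median of the members was -0.0097 and that of all genes -0.0012, and 16 of 30 members had a negative value. DESeq2 called 0 members as well. Srebf1 had 214, 213 and 231 CPM in KO and 243.9, 249.04 and 238 CPM in WT, separate by genotype but not called (-0.15, SE 0.044, adjusted p = 0.0952). Srebf2 had 522, 535 and 545 CPM in KO and 570.4, 570.1 and 575 CPM in WT, also separate (-0.098, SE 0.034, adjusted p = 0.147). Dhcr7 had 56.0, 65.3 and 65.9 CPM in KO and 72.9, 68.6 and 76.3 CPM in WT (-0.21, SE 0.068, adjusted p = 0.118). Insig2 (-0.38, SE 0.15, adjusted p = 0.198), Insig1 (-0.089, adjusted p = 0.544) and Scap (0.0076, adjusted p = 0.955) overlapped. The SEs of the members were the smallest of the 4 cell types, with a median of 0.071.

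That dendritic cells had called members and the other types had none does not show that the effects differ. In a fit of all 24 libraries, the KO effect differed between cell types in 2 of 30 members, Elovl6 and Scap, against 12.6% of 12249 genes. Elovl6 had a log2 fold change of 0.0054 (SE 0.23) in B cells and -0.43 (SE 0.20) in dendritic cells, against -1.99 (SE 0.38) for macrophages and 0.14 (SE 0.16) for T cells (adjusted p = 0.00801). The macrophage effect differed from each of the others, most clearly from that in T cells (T cells minus macrophages 2.13, SE 0.42, adjusted p = 0.0052). Scap stood at -0.13 (SE 0.069) in dendritic cells and 0.27 (SE 0.069) in macrophages (adjusted p = 0.037 over the 4 types, and 0.0103 for dendritic cells minus macrophages). Next in order, and not past the threshold, were Tm7sf2 (adjusted p = 0.0558), Ebp (0.0703), Elovl5 (0.0946), Mvd (0.119), Scd2 (0.126) and Dhcr7 (0.13). For Dhcr7 the B cell value was -0.060, that of dendritic cells -0.89, of macrophages -0.55 and of T cells -0.21, and Scd2 had -0.19, -0.81, -0.31 and -0.17 in the same cells. Elovl6 stayed past the threshold in all 24 fits that left out 1 library, and Scap lost its call in 15 of them. With the replicate number as a block the effect differed in 6 members, Mvd, Tm7sf2, Dhcr7, Scd2, Elovl6 and Fads2, with 13% of all genes, and Scap did not pass (adjusted p = 0.092). Without WT macrophage replicate 3 the effect differed in 13 members, with 29.2% of all genes.

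Of 64 further genes of sterol and lipid metabolism, none was called in B cells (53 tested), macrophages (56) or T cells (54). In dendritic cells 5 of 55 tested fell and 2 rose, beside 9.42% of all genes called lower and 12.2% higher. In the list of other sterol synthesis genes 1 of 6 tested fell, the mitochondrial thiolase Acat1 (21.8 ± 1.30 CPM in KO cells, 36.8 ± 2.81 in WT cells, mean and SD of 3 libraries; -0.75, SE 0.10, adjusted p = 0.00065). None of 10 genes of the isoprenoid branch was called. Of 13 tested genes of sterol uptake, storage and SREBP processing, the sterol acyltransferase Soat1 (21.4 ± 2.39 CPM in KO, 35.6 ± 5.24 in WT; -0.73, SE 0.13, adjusted p = 0.0031) and the ubiquitin ligase Rnf139 (-0.32, SE 0.095, adjusted p = 0.033) fell. Mylip, a ubiquitin ligase induced by sterol-sensing LXR receptors, rose (30.1 ± 1.03 CPM in KO, 20.5 ± 3.21 in WT; 0.55, SE 0.12, adjusted p = 0.0097). Another LXR target, the phospholipid acyltransferase Lpcat3, fell (8.36 ± 1.44 CPM in KO, 14.9 ± 1.35 in WT; -0.82, SE 0.16, adjusted p = 0.0048) and was the single call among 6 tested genes of sterol efflux. Of 20 tested genes of further fatty acid and glycerolipid synthesis, the phosphatidate phosphatase Lpin1 rose (0.55, SE 0.097, adjusted p = 0.0029) and the elongation enzyme Hsd17b12 fell (-0.42, SE 0.12, adjusted p = 0.025).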

How the data were processed

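The authors deposited whole-number read counts per gene symbol over coding sequence for each library, with no normalization. Per the labels' protocols, total RNA was made into TruSeq libraries and read as paired ends. Per the submitters' processing notes, cutadapt, STAR and mm9 were used, without versions; the counter, and how it treated strand, shared reads and overlapping genes, is not given in the sources used here. Reads outside any feature (51.4 to 61.1% of a library) and ambiguous reads (at most 0.34%) name no gene and were left out.

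Groups came from sample titles. KO was compared with WT within each cell type by edgeR 4.0.16 (R 4.3.3), with TMM, filterByExpr and the robust quasi-likelihood F test, two-sided, adjusted over all genes tested and called under 0.05. Effects between cell types came from a fit of all 24 libraries and levels from one of the WT libraries. SE is the absolute log2 fold change over the square root of F. CPM use TMM over all 24 libraries, which moved a log2 fold change by at most 0.021 relative to scaling within a cell type. Coding lengths come from GENCODE M21 (GRCm38), not from the mm9 build of the counts. The procedure was tested on simulated data with 200 changed genes.

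Alternatives were RLE factors, DESeq2 1.42.0, no filter, 1 CPM in 3 libraries, the replicate block, a fit of all libraries and each library left out. Same-numbered KO and WT macrophage libraries deviated together from their group means (correlations of 0.128, 0.331 and 0.405). The B cell correlations were 0.231, 0.055 and 0.276. The labels do not state that the numbers pair libraries, so no main fit was paired. The replicate block was run only as an alternative. Replicate pairs differed by more than counting noise (chi-square per gene 2.082 to 160.7). Members and lists were chosen with earlier results of these data known. All members are accounted for. Values of every library are given for up to 8 called members with the largest fold changes per cell type, besides SREBP control genes; levels name the 3 most abundant members per cell type and the 6 with the widest range. A miR-155 match in 1 further member is not reported here.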

Additional observations from a re-analysis of the deposited data

Results flagged for a closer look

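In 2 of 30 members the KO effect differed between the 4 cell types in a test of the difference itself. Over all 12249 genes tested, 12.6% differed. Elovl6 passed at an adjusted p of 0.008, with lower levels in KO macrophages (0.366 ± 0.067 CPM, SD, n = 3) than in WT macrophages (1.504 ± 0.37 CPM, n = 3) and with 3, 4 and 3 counts behind the KO values. Its adjusted p stayed between 0.003 and 0.033 over the alternatives. Scap passed at an adjusted p of 0.037, with higher levels in KO macrophages (71.7 ± 4.14 CPM) than in WT macrophages (59.8 ± 3.71 CPM) and a small negative value in dendritic cells. Its adjusted p ran from 0.0014 with DESeq2 to 0.092 with the replicate block.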

How the results depend on the processing

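Over all alternatives the 12 members that fell in dendritic cells gave 144 values, all negative and 103 past the threshold. Members that fell there numbered 3 to 13 with a library left out and those that rose 0 to 2, the genes called 1176 to 2870 (2279 with all) and the median -0.389 to -0.280. In macrophages the genes called (95) numbered 547 with DESeq2, 265 with the replicate block, 1755 in the fit of all 24 libraries (8 members down, 1 up), and 0 to 2746 with a library left out (0 to 13 members down, 0 to 1 up). In B cells the genes called (325) numbered 501 without a filter, 1260 with the replicate block, 81 in the fit of all libraries and 141 to 441 with a library left out (0 to 2 members down). In T cells (223) they were 478, 63 and 32 to 598 for no filter, the fit of all libraries and a library left out. The replicate block called 7 members down in B cells (5.98% of all genes), where titles and file names number the WT libraries differently and the numbers were not taken to pair samples (correlations of 0.231, 0.055 and 0.276), and 12 in dendritic cells. Members whose KO effect differed between cell types (2) numbered 6 with the block, 4 with DESeq2 and 1 to 13 with a library left out (1548 genes, 1121 to 3619). Members lower in T cells than in macrophages (6) numbered 3 without WT macrophage replicate 2, with no share over all genes computed for that fit.

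Values near 0 changed sign. Elovl6 in B cells was -0.0048 with DESeq2, and in the fit of all libraries Acly and Fads1 in macrophages were -0.0019 and -0.0052. With a library left out the ranges were as follows. In B cells they were -0.13 to 0.043 for Srebf1, -0.028 to 0.021 for Scap and -0.16 to 0.19 for Elovl6. In dendritic cells they were -0.19 to 0.012 for Pmvk, -0.13 to 0.015 for Acly and -0.028 to 0.16 for Fasn. In macrophages they were -0.22 to 0.090 for Lss, -0.027 to 0.18 for Hsd17b7, -0.054 to 0.14 for Srebf1, -0.025 to 0.067 for Acly, -0.029 to 0.28 for Fasn, -0.66 to 0.056 for Scd1 and -0.12 to 0.14 for Fads1. In T cells Scap ran from -0.019 to 0.051. The causes were not tested. Few counts limit Elovl6 in macrophages and Insig2 in dendritic cells.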

Other observations

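Within a group, most cholesterol synthesis genes were often highest or lowest in the same library. The same count was not made over all genes, so these orders are not shown to be particular to the pathway. Of 15 such genes, WT macrophage replicate 2 held the highest WT value in 15 and replicate 3 the lowest in 14, and KO macrophage replicate 2 held the highest KO value in 13. In B cells, WT replicate 3 was highest in 13 and WT replicate 2 lowest in 14, with KO replicate 2 lowest in 13. In T cells KO replicate 3 was highest in 10 and WT replicate 3 in 11. In dendritic cells WT replicate 1 was highest in 12, while the KO libraries had no leader (5, 7 and 3 genes). The 9 fatty acid genes followed the same library in KO macrophages (replicate 2 highest in 9) but not in WT macrophages (2, 3 and 4 genes).

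Pairing libraries by number as a description, 11 of 15 cholesterol genes were lower in KO in all 3 pairs of dendritic cells and 0 higher. In macrophages 9 were lower and 0 higher, in B cells 5 and 0, and in T cells 3 and 1. No share over all genes was computed for this order, so the counts have no background to be set against. The labels do not state that the numbers pair libraries in any cell type.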
